A study of Mus musculus with 30 samples.

Results

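The genes of fatty acid oxidation, with the PPAR receptors and coactivators that are known to regulate them and a pair of lipid-responsive PPAR targets, were examined by RNA-seq in AML12 cells, a hepatocyte line derived from mice that carried a human TGF-alpha transgene. The 32 members were taken by gene symbol from the 49089 genes in the files, and all 32 were among the 11368 genes with enough counts to be tested. Control cells had received a non-silencing siRNA, and the other cells had been depleted by siRNA of FoxK1 (FoxK1 KD), of FoxK2 (FoxK2 KD) or of both (DKD), so that the losses were transient and partial. Each of these 4 kinds of cells was measured without stimulation (basal) and after exposure to 100 nM insulin for 6 h. There were 4 samples in each of the 8 groups, except Control and DKD cells after insulin with 3 each, which gave 30 samples. The study describes serum starvation overnight before the stimulation, and its methods give basal cells vehicle for 6 h while the labels give them a time of 0.

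Fatty acids are oxidized in steps that the members cover from end to end. Long-chain acyl-CoA synthetases (the Acsl genes) activate the fatty acid, Cpt1a and Cpt2 carry it into mitochondria as acyl-carnitine, and acyl-CoA dehydrogenases (Acadvl, Acadl, Acadm and Acads, from very long to short chains) begin each round of β-oxidation, passing electrons through the electron transfer flavoprotein. The trifunctional protein and the later mitochondrial enzymes complete the round, and peroxisomes run a parallel pathway for very long and branched chains. In liver these genes are known targets of PPARα, which fatty acids activate in fasting, and Ppargc1a is a coactivator for it, whereas insulin is known to favour lipid synthesis over oxidation. FoxK1 and FoxK2 are Forkhead transcription factors.

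Total counts per sample ranged from 2141460 to 5668270. The knockdowns were seen in the targeted transcripts, with mean Foxk1 in FoxK1 KD and DKD cells at 45.2% and 57.1% of Control at basal, and mean Foxk2 in FoxK2 KD and DKD cells at 33.7% and 35.8%. After insulin these were 58.2% and 64.6% for Foxk1, and 40.4% and 39.5% for Foxk2, of Control after insulin. Values are given below as CPM, which are counts per 1000000 counts of the sample, on library sizes scaled by the trimmed mean of M values. The hepatocyte label was only partly borne out by marker genes. Hnf4a, a hepatocyte transcription factor, had group means of 116 to 145 CPM and Apob, the main protein of secreted lipoproteins, 446 to 700 CPM, but Alb (albumin) had only 6.07 to 20.3 CPM, and Apoa1, Apoc3, Fgb, Cps1 and Cyp2e1 were too low to be tested. The bile duct markers Krt7, Krt19, Sox9 and Spp1 summed to 1340 to 2820 CPM per sample, above the 449 to 1020 CPM of the hepatocyte list, while Epcam was at 0 in every sample. Markers of fibroblasts, endothelial cells, adipocytes and muscle summed to at most 1.39 CPM in any sample, the hepatoblast list (of which only Afp was above 0) to 1.41 to 7.38 CPM and the macrophage list to 4.09 to 22.1 CPM, of which only Csf1r could be tested and Adgre1 was at 0 throughout. Control basal replicate 1 stood apart from its group, with 18% of tested genes over 1.5-fold from the mean of the other 3 samples, against 3.69% to 4.23% for each of those, and values without it are given where it moved a call or a count. Nothing in the labels says that the samples of a group were separate cultures, so the p-values measure the spread between these samples, which may be technical.

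The sequences upstream of Acadm, Acadl and Acsl1 are shown first, because these members were called with insulin in all 4 kinds of cells, and with them that of Cpt1a, the entry step of the mitochondrial pathway. RefSeq start sites (GRCm38.p6) were at hand for 27 of the 32 members, in 28 windows since Acsl1 has a pair of starts, and the 250 bases before each start were searched on both strands for 4 motifs tied to the factors of interest. The PPAR direct repeat AGGTCANAGGTCA was in none of the members' windows and in 0.0335% of all 32851 windows of the same length. Its repeat unit AGGTCA was in 5 of the 28 (Acadm, Acadvl, Cpt1a, Echs1 and Plin2), against 14.0% of all windows. The Forkhead core GTAAACA was in none, against 3.17%, and the shorter AAACA, which lies within it, was in the windows of 6 members (Acsl1, Cpt1a, Eci1, Ehhadh, Etfdh and Hadh), against 46.4% of all windows. A match is only a run of letters and not a site. In the following sequences, written 5′ to 3′ along the gene, capitals mark AGGTCA and AAACA in either orientation. They are Acadm (chr3:153944644-153944893, minus strand), Acadl (chr1:66863310-66863559, minus strand), Acsl1 (chr8:46490716-46490965, plus strand, the downstream start) and Cpt1a (chr19:3323051-3323300, plus strand).
Acadm: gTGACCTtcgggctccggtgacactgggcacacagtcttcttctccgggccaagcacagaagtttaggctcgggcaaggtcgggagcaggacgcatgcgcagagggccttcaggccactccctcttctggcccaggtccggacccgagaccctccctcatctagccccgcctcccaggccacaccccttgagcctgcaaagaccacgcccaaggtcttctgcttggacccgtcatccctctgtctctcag
Acadl: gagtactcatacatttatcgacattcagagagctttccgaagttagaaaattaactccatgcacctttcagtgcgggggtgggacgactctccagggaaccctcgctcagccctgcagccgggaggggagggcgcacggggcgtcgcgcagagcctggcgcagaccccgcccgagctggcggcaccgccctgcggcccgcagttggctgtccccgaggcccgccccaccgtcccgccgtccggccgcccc
Acsl1: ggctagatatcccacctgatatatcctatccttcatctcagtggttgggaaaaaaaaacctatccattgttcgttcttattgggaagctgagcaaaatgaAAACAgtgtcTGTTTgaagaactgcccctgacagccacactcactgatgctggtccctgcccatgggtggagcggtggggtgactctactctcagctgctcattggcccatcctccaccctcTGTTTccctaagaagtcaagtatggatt
Cpt1a: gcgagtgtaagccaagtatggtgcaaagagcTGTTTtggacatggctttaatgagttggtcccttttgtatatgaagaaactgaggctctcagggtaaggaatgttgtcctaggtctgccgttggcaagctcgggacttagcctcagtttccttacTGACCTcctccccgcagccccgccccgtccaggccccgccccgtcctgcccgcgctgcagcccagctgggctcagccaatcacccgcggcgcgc
The Acadm window holds 1 AGGTCA, read on the opposite strand, 249 bases before the start. The Cpt1a window holds 1 AGGTCA at 94 bases, also on the opposite strand, and 1 AAACA at 219 bases. The Acsl1 window holds AAACA 3 times and no AGGTCA, and the Acadl window holds neither. Of the pair of Acsl1 windows, the one with more of these matches was printed. The window of the upstream Acsl1 start holds neither motif. The other motifs that were searched gave CCAAT in 14 of the 28 member windows, against 33.8% of all windows, and none of CACGTG (6.02% of all), TGACGTCA (1.55%) or TATAAA (12.4%).

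The members covered a wide range of levels in Control basal cells when compared per kilobase of exon. The length used was that of all annotated exons of a gene merged, 10483 bases for Acsl1 and 1516 for Acaa2. It is not the length of the transcript expressed, so the order depends in part on the annotation. Acsl4, a synthetase that prefers arachidonic acid, was highest at 235 ± 26.5 CPM per kb (SD, n = 4), more than any other member in every one of the 4 samples. Acsl5 followed at 106 ± 10.5 CPM per kb, then Plin2 (a coat protein of lipid droplets) at 74.7 ± 24.8, Acaa2 (the last thiolase of the mitochondrial round) at 73.6 ± 15.9 and Acadl at 68.0 ± 4.44. Plin2, Acaa2 and Acadl did not differ beyond their spread. Cpt1a, the entry step of the mitochondrial pathway, stood at 57.6 ± 3.09 CPM per kb, well above its partner Cpt2 at 12.8 ± 0.689. Acsl1, the main synthetase of liver and fat, was near the bottom of the order at 3.19 ± 0.496 CPM per kb. The receptors and coactivators were low, except for Ppargc1a at 15.4 ± 0.555 CPM per kb. Ppard, the receptor PPARδ, was at 2.10 ± 0.193, Ppara, the receptor PPARα, at 0.75 ± 0.476, and Ppargc1b at 0.451 ± 0.124 CPM per kb. Ppara collected 291 counts over all 30 samples and Ppargc1b 255, so changes in either could be measured only coarsely.

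**Figure D1:**
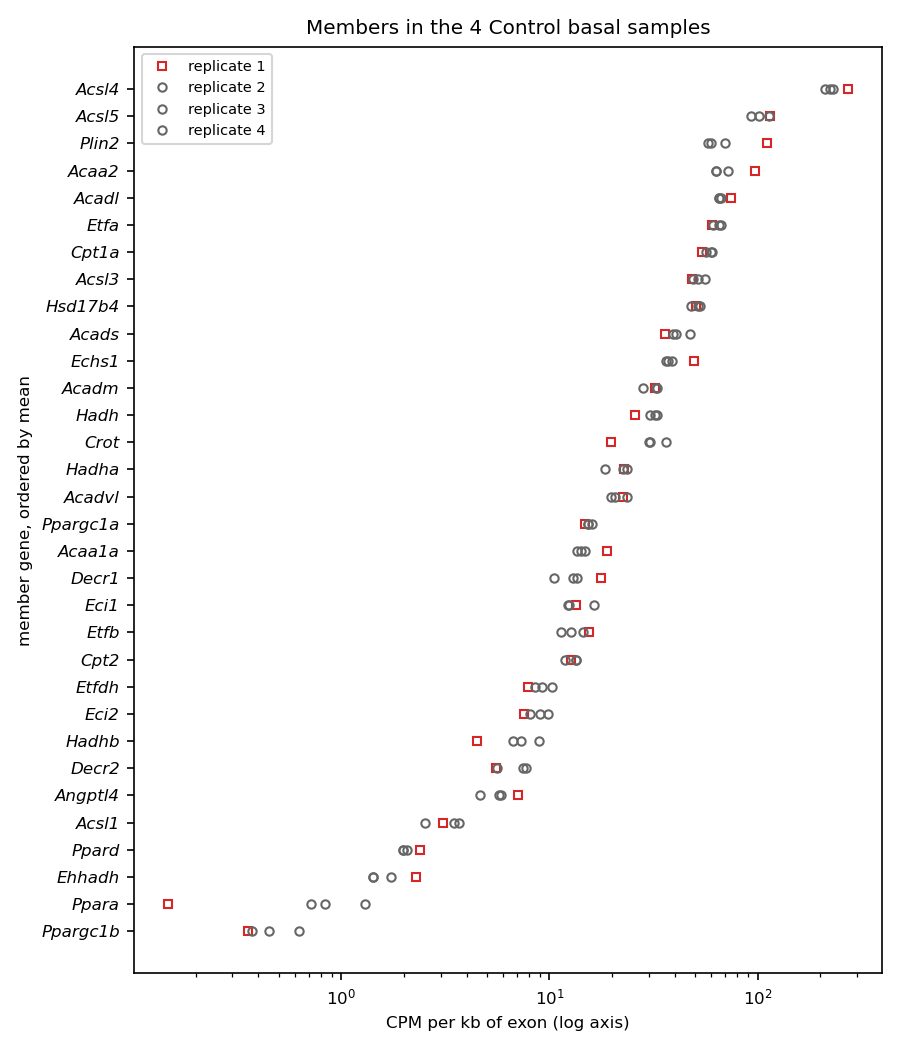
Level of each member in the 4 Control basal samples, in CPM per kb of exon on a log axis, with genes ordered by their mean; each point is 1 sample and red squares are replicate 1, which stood apart from its group. Acsl4 lies highest at a mean of 235 CPM per kb, and Ppara and Ppargc1b lie lowest, below 1 CPM per kb on average.

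The effect of losing both FoxK proteins was asked first in cells without insulin. In DKD against Control basal cells, 6 members rose and 3 fell at an adjusted p below 0.05, which is 28.1% of the 32, beside 21.1% of all genes tested (10.3% up and 10.8% down). The members that rose were Ppard, Acads, Eci2, Acaa1a, Hsd17b4 and Angptl4, and those that fell were Acsl3, Acsl4 and Acadm. None of these changes reached 1.5-fold, and the median over all 32 members was -0.03 on the log2 scale. Both called synthetases went down, both called peroxisomal enzymes went up, and none of the carnitine transfer genes, the electron transfer flavoprotein genes or the genes of the trifunctional protein and later mitochondrial steps passed the test. Without Control basal replicate 1 the count became 12 members (7 up and 5 down, beside 27.0% of all genes), and with only these 2 groups in the fit it became 5 (Ppard, Acsl3, Acsl4, Acads and Acaa1a), beside 12.1% of all genes.

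Ppard was expressed at 17.9, 14.8, 15.6 and 14.8 CPM in the Control basal samples and at 23.0, 21.2, 23.6 and 19.5 CPM in the DKD basal samples, so that every DKD sample lay above every Control sample. The difference was 0.47 ± 0.13 on the log2 scale (SE, adjusted p = 0.00908), and it was called in all 8 fits that left out 1 of these samples. Angptl4, a secreted inhibitor of lipoprotein lipase and a classical PPAR target, was at 25, 20.3, 16.4 and 20.7 CPM in Control and 27.0, 27.1, 30.1 and 24.9 CPM in DKD cells. The groups overlapped by the narrowest margin, and the difference of 0.40 ± 0.14 (adjusted p = 0.0367) was called in only 2 of the 8 fits without 1 sample. Plin2, the other lipid-responsive target, was at 390, 209, 204 and 246 CPM in Control and 356, 271, 280 and 273 CPM in DKD cells. It did not pass the test (0.17, adjusted p = 0.367), whereas without Control basal replicate 1, the sample at 390 CPM, its difference was 0.42 (adjusted p = 0.00197).

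Of the synthetases, Acsl3, an enzyme of the endoplasmic reticulum and lipid droplets, was at 210, 226, 243 and 214 CPM in Control basal samples and at 165, 191, 146 and 177 CPM in DKD basal samples. It fell by 0.39 ± 0.08 on the log2 scale (adjusted p = 0.00047), the smallest adjusted p among the members in this comparison, with no overlap. Acsl4 was at 1470, 1140, 1210 and 1250 CPM in Control and 824, 923, 1020 and 1130 CPM in DKD cells. Its decrease of 0.38 ± 0.13 (adjusted p = 0.036) was called in 3 of the 8 fits without 1 sample, and it was -0.31 (adjusted p = 0.0837) without Control basal replicate 1. Acsl1 and Acsl5 did not pass the test, although Acsl1 was called without Control basal replicate 4 (-0.35, adjusted p = 0.0465).

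The acyl-CoA dehydrogenases did not move together. Acads, for short chains, was at 81.7, 92.5, 89.3 and 108 CPM in Control and 120, 119, 148 and 106 CPM in DKD cells, with 1 DKD sample inside the Control range, and rose by 0.39 ± 0.10 (adjusted p = 0.00613). Acadm, for medium chains, was at 126, 127, 129 and 110 CPM in Control and 98.5, 117, 95.3 and 106 CPM in DKD cells. It fell by 0.23 ± 0.08 (adjusted p = 0.0385), a call made in 3 of the 8 fits without 1 sample. Acadl and Acadvl did not pass the test.

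Among the peroxisomal enzymes, the thiolase Acaa1a was at 83.6, 62.8, 65.2 and 60.2 CPM in Control and 100, 91.9, 90.2 and 80.9 CPM in DKD cells, where only Control basal replicate 1 reached into the DKD range. It rose by 0.42 ± 0.11 (adjusted p = 0.00436) and was called in all 8 fits without 1 sample. Acaa1a has a near-identical neighbour, Acaa1b, which also rose (0.52 ± 0.14, adjusted p = 0.00732), and reads could be shared between them, so each value is uncertain. Hsd17b4, the bifunctional enzyme for branched chains, was at 173, 176, 181 and 163 CPM in Control and 192, 207, 194 and 201 CPM in DKD cells, without overlap, a rise of 0.20 ± 0.06 (adjusted p = 0.0237). Ehhadh, the bifunctional enzyme for straight chains, was at 6.80, 4.25, 4.22 and 5.18 CPM in Control and 6.60, 6.11, 9.25 and 7.96 CPM in DKD cells. It passed the test only without Control basal replicate 1 (0.67, adjusted p = 0.0318, against 0.53 and 0.0835 with it). Eci2, an isomerase for unsaturated chains found in mitochondria and peroxisomes, was at 41.7, 49.8, 54.3 and 44.8 CPM in Control and 53.4, 68.9, 58.3 and 53.9 CPM in DKD cells. It rose by 0.30 ± 0.10 (adjusted p = 0.037), a call made in 4 of the 8 fits without 1 sample. The difference was 0.24 (adjusted p = 0.088) without Control basal replicate 1 and 0.19 (adjusted p = 0.229) without DKD basal replicate 2, the sample at 68.9 CPM.

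The same replicate decided 3 further members that fell. Without it, Ppargc1a was lower in DKD cells by -0.26 (adjusted p = 0.042), Crot, the peroxisomal carnitine octanoyltransferase, by -0.26 (adjusted p = 0.00996) and Hadh, the mitochondrial hydroxyacyl-CoA dehydrogenase, by -0.20 (adjusted p = 0.0297). With all samples, Ppargc1a stood at 97.5, 101, 101 and 106 CPM in Control and 83.0, 91.6, 76.8 and 92.9 CPM in DKD cells, with no overlap, and missed the threshold (-0.23, adjusted p = 0.0667). Crot stood at 108, 199, 166 and 164 CPM in Control and 153, 149, 146 and 142 CPM in DKD cells, where the sample at 108 CPM was again replicate 1. Hadh stood at 128, 152, 160 and 164 CPM in Control and 142, 131, 131 and 147 CPM in DKD cells. Cpt1a was at 411, 460, 458 and 431 CPM in Control and 434, 443, 472 and 421 CPM in DKD cells, which is a difference of 0.01 ± 0.06 (adjusted p = 0.96). Ppara was at 0.567, 5.0, 2.73 and 3.21 CPM in Control and 3.45, 2.04, 2.78 and 2.31 CPM in DKD cells, a difference of -0.17 ± 0.36 (adjusted p = 0.783) that this depth could not resolve.

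Base composition moved with this comparison. Across all genes tested, the GC content of the exons and the log2 difference had a Spearman correlation of 0.47, and over the 32 members 0.59, both given as descriptions over genes that share the same libraries. The members that rose had a median GC content of 51.5%, and those that fell 43.2%. With a trend of GC content and length removed from each sample, Acads (0.15, adjusted p = 0.325), Acsl4 (-0.16, adjusted p = 0.384) and Angptl4 (0.36, adjusted p = 0.0593) were no longer called, while Ppard (0.38, adjusted p = 0.0301) still was. Of the markers, hepatocyte genes also differed, with Serpina1a (1.09 ± 0.14, adjusted p = 1e-06) and Hnf4a (0.31 ± 0.08, adjusted p = 0.00685) higher in DKD cells out of 8 tested, although the summed list ranged from 449 to 935 CPM in Control and 665 to 701 CPM in DKD cells. Among the bile duct markers Krt7 rose and Sox9 fell, and the macrophage gene Csf1r rose (0.79 ± 0.17, adjusted p = 0.00103), with the macrophage list at 8.22 to 12.9 CPM in Control and 15.7 to 18.2 CPM in DKD cells. These marker calls held without Control basal replicate 1, and Apob (-0.60, adjusted p = 0.00069) and Cebpa (0.61, adjusted p = 0.00873) were then called too. The part of GC content and of these markers in the members' changes beyond these fits was not tested.

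**Figure D2:**
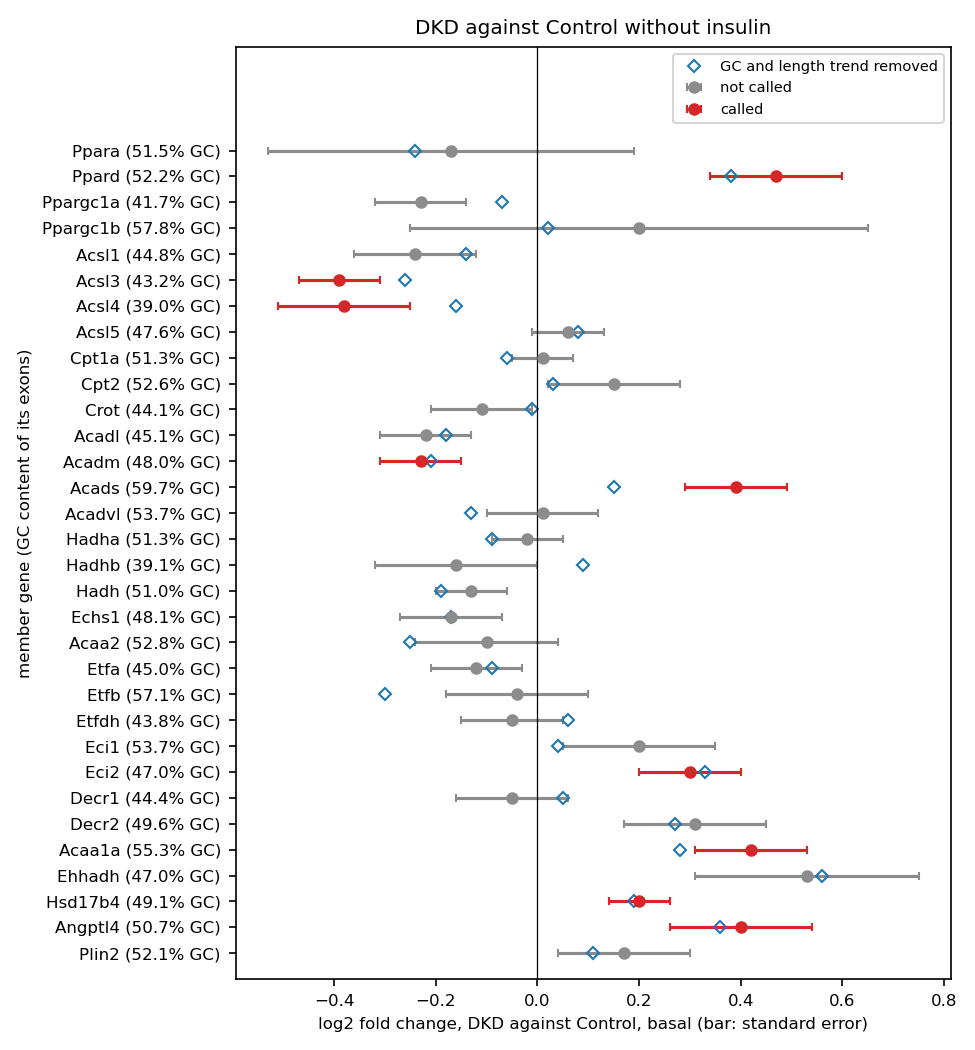
Log2 fold change of each member in DKD against Control basal cells, grouped by role, with bars for the standard error, called members (adjusted p below 0.05) in red and the others in grey; open diamonds show the value with the GC and length trend removed. The 6 called increases lie between 0.20 and 0.47 and the 3 called decreases between -0.39 and -0.23, and Acads and Acsl4 move toward 0 when the trend is removed.

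**Figure D3:**
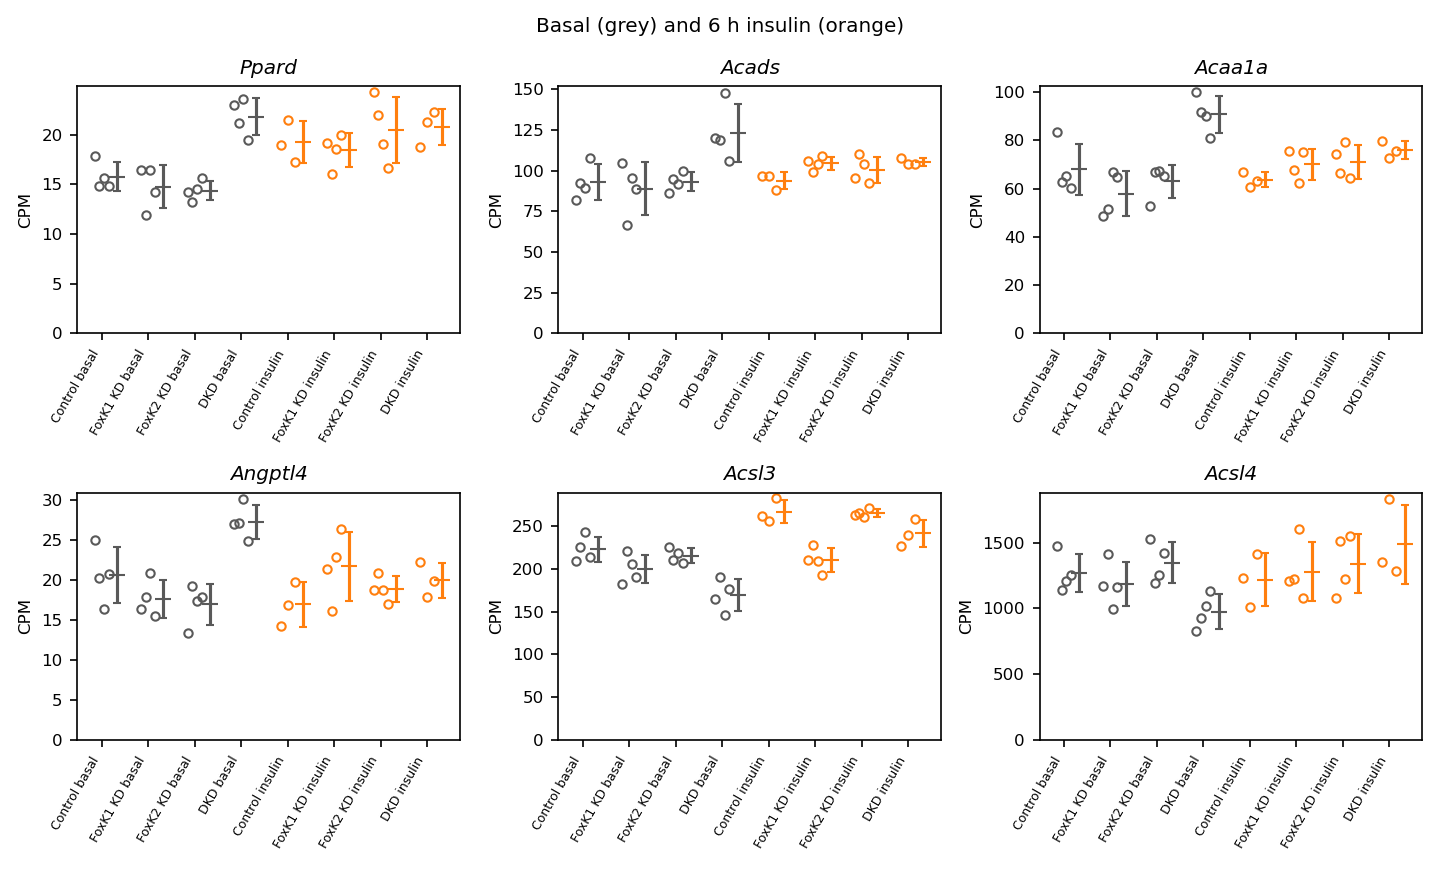
CPM in every sample of 6 members called in DKD against Control basal cells, in the 8 groups, with the mean and SD beside the points; grey is basal and orange is insulin. The DKD basal samples of Ppard lie above those of the other basal groups, those of Acsl3 lie mostly below them, and after insulin none of the 6 differed between DKD and Control cells at an adjusted p below 0.05.

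The single knockdowns at basal changed little in these genes. In FoxK1 KD against Control cells 1 of the 32 members passed the test, beside 8.09% of all genes, and in FoxK2 KD against Control cells none did, beside 0.378% of all genes. Without Control basal replicate 1 these shares of all genes were 3.59% and 0.114% and no member was called, and with only the FoxK1 KD and Control basal groups in the fit the share was 0.426%, again with no member. At an unadjusted p below 0.05 there were 5 members with FoxK1 KD and 2 with FoxK2 KD. Of the 11368 genes tested, 2677 and 1272 had such a p. The member called was Acaa2, at 147, 95.3, 109 and 95.7 CPM in Control and 105, 83.2, 62.6 and 66.4 CPM in FoxK1 KD cells, which fell by 0.48 ± 0.14 (adjusted p = 0.0262). Without Control basal replicate 1, the highest of the 8 samples, the difference was -0.32 and was not called (adjusted p = 0.179). Echs1, the enoyl-CoA hydratase, was at 409, 308, 323 and 300 CPM in Control and 300, 205, 312 and 282 CPM in FoxK1 KD cells. It did not pass the test (-0.28, adjusted p = 0.0617) but was called in 3 of the fits without 1 sample. Crot, at 179, 190, 187 and 176 CPM in FoxK1 KD cells, differed from Control by 0.20 (adjusted p = 0.224), and by 0.32 (adjusted p = 0.03) without Control basal replicate 2, the sample at 199 CPM. The macrophage gene Csf1r was higher in FoxK1 KD cells as well (1.01, adjusted p = 0.00014). Of the other markers there, Serpina1a rose (0.84), and Krt19 (-0.70), Sox9 (-0.40) and Ttr (-0.81) fell. The call of Ttr was lost without Control basal replicate 1 (-0.53, adjusted p = 0.188). In FoxK2 KD cells Serpina1a rose (0.73, adjusted p = 0.0179). The members called in DKD cells had these values in the single knockdowns: Ppard differed by -0.07 with FoxK1 KD and -0.12 with FoxK2 KD, Acsl3 by -0.16 and -0.05, and Acaa1a by -0.22 and -0.10, and none was called. All 3 comparisons share the same Control samples.

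Insulin stimulation was then examined in each kind of cell. In Control cells 4 members rose and 4 fell, 25% of the 32, beside 25.4% of all genes tested (12.4% up and 13.1% down), so the share was near that of any gene. Acsl1, Acsl3, Acsl5 and Hsd17b4 rose, and Cpt1a, Acadl, Acadm and Decr1 fell. With only the Control samples in the fit, 3 were called (Acsl1, Acadl and Acadm, beside 10% of all genes), and without Control basal replicate 1 the count was 11 (4 up and 7 down, beside 25.5% of all genes). In FoxK1 KD cells 3 members rose and 9 fell (37.5%, beside 31.6%, of which 16.2% up and 15.4% down), in FoxK2 KD cells 5 rose and 4 fell (28.1%, beside 28.1%, of which 14.4% up and 13.7% down) and in DKD cells 3 rose and 2 fell (15.6%, beside 16.3%, of which 8.31% up and 7.99% down). Acsl1, Acadl and Acadm passed the test in the same direction in all 4 kinds of cells. Of the marker lists in Control cells, the bile duct list summed to 1690 to 2150 CPM at basal and 2050 to 2590 CPM after insulin, with Spp1 higher (0.58 ± 0.13, adjusted p = 0.00099) and Sox9 lower (-0.47 ± 0.09, adjusted p = 0.00019), and among hepatocyte markers Hnf4a rose (0.27, adjusted p = 0.025) and Tat fell (-1.15, adjusted p = 0.0102). The macrophage gene Csf1r fell (-1.70 ± 0.26, adjusted p = 6.4e-06), with its list at 4.09 to 6.59 CPM after insulin, and fell in the 3 knockdowns too, by between -1.59 and -1.01. The hepatoblast gene Afp rose (1.01 ± 0.34, adjusted p = 0.0252), from a mean of 2.49 to 4.88 CPM. Of these marker calls in Control cells that of Hnf4a was lost without Control basal replicate 1 (0.17, adjusted p = 0.0994). In bulk RNA fewer cells of a type and less RNA per cell cannot be told apart, and the part of these markers in the members' changes was not tested. GC content and the insulin response in Control cells had a Spearman correlation of 0.08 over all genes and 0.01 over the members, again as descriptions. For the response in DKD cells the correlations were -0.21 and -0.25, and the synthetases Acsl1, Acsl3 and Acsl4, which rose there, had a GC content of 39.0% to 44.8%. With the GC and length trend removed all 3 were still called, at 0.50, 0.42 and 0.48. In FoxK1 KD cells the insulin calls of Crot (-0.21, adjusted p = 0.0868), Decr1 (-0.29, adjusted p = 0.0695) and Hsd17b4 (0.13, adjusted p = 0.103) were then lost. So were those of Etfdh (-0.21, adjusted p = 0.0837) and Decr1 (-0.29, adjusted p = 0.0576) in FoxK2 KD cells. Calls were gained for Plin2 in FoxK1 KD (-0.38, adjusted p = 0.0126), and Cpt1a (-0.18, adjusted p = 0.018) and Hadh (-0.2, adjusted p = 0.0381) in FoxK2 KD cells.

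Acsl1 (chr8:46471037-46536051) rose in every kind of cell. In Control cells it went from 32.3, 36.3, 38.5 and 26.6 CPM at basal to 55.4, 43.9 and 52.5 CPM after insulin, an increase of 0.61 ± 0.12 on the log2 scale (adjusted p = 0.00028). In FoxK1 KD cells it went from 33.7, 24.1, 29.2 and 28.4 to 48.4, 34.3, 39.4 and 39.7 CPM (0.48 ± 0.12, adjusted p = 0.0031). For FoxK2 KD cells the values were 34.6, 36.9, 32.6 and 32.5 CPM at basal and 41.0, 48.7, 51.6 and 49.5 CPM after insulin (0.48 ± 0.11, adjusted p = 0.00176). DKD cells had 28.1, 28.5, 29.6 and 26.7 CPM at basal and 41.2, 37.9 and 43.3 CPM after insulin (0.54 ± 0.13, adjusted p = 0.00327). Basal and insulin samples did not overlap in any of the 4, and every fit that left out 1 sample kept the call. An exon of Gm45244 overlaps Acsl1 on the opposite strand, and reads of the 2 cannot be told apart where counting ignored strand, which the sources used here do not state.

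Acadm (chr3:153922357-153944632) fell from 126, 127, 129 and 110 CPM at basal to 80.4, 83.1 and 84.3 CPM after insulin in Control cells, a decrease of 0.57 ± 0.09 (adjusted p = 1.1e-05). FoxK1 KD cells had 117, 139, 131 and 121 CPM at basal and 96.0, 95.6, 87.6 and 78.3 CPM after insulin (-0.50 ± 0.08, adjusted p = 2.3e-05). FoxK2 KD cells had 128, 118, 126 and 127 CPM at basal and 77.2, 76.7, 91.0 and 81.9 CPM after insulin, the lowest adjusted p of any member in any comparison (-0.61 ± 0.08, adjusted p = 6.4e-07). In DKD cells, whose basal level was lower at 98.5, 117, 95.3 and 106 CPM, insulin samples stood at 81.7, 81.3 and 85.1 CPM (-0.33 ± 0.09, adjusted p = 0.00918). The insulin groups had means between 81.7 and 89.4 CPM in all 4 kinds of cells. The difference between the DKD and Control responses, 0.23 ± 0.13, was not called (adjusted p = 0.396).

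Acadl (chr1:66830839-66863277), the long-chain dehydrogenase, went from 149, 131, 134 and 131 CPM to 96.5, 86.6 and 88.3 CPM in Control cells (-0.59 ± 0.10, adjusted p = 2.3e-05). With FoxK1 KD it went from 126, 150, 116 and 110 to 102, 99.3, 95.7 and 102 CPM (-0.33 ± 0.09, adjusted p = 0.00566). With FoxK2 KD it went from 111, 133, 139 and 133 to 80.9, 91.3, 104 and 85.4 CPM (-0.52 ± 0.09, adjusted p = 3.1e-05), and in DKD cells from 123, 120, 112 and 111 to 92.4, 87.8 and 87.1 CPM (-0.39 ± 0.10, adjusted p = 0.00518). All basal samples were above all insulin samples within each kind of cell.

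Cpt1a (chr19:3322334-3385733) fell in Control cells from 411, 460, 458 and 431 CPM to 379, 353 and 354 CPM (-0.28 ± 0.07, adjusted p = 0.00245), and in FoxK1 KD cells from 468, 433, 442 and 435 to 382, 361, 353 and 375 CPM (-0.27 ± 0.06, adjusted p = 0.0013). In FoxK2 KD cells the samples were at 475, 425, 459 and 431 CPM at basal and 410, 418, 394 and 392 CPM after insulin, which also did not overlap but missed the threshold (-0.15 ± 0.06, adjusted p = 0.074). DKD cells were at 434, 443, 472 and 421 CPM at basal and 403, 403 and 378 CPM after insulin (-0.16 ± 0.07, adjusted p = 0.102). The response in DKD cells differed from that in Control cells by 0.12 ± 0.10 (adjusted p = 0.629), and that in FoxK2 KD cells by 0.13 ± 0.09 (adjusted p = 0.891), so no difference between the responses was shown.

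**Figure D4:**
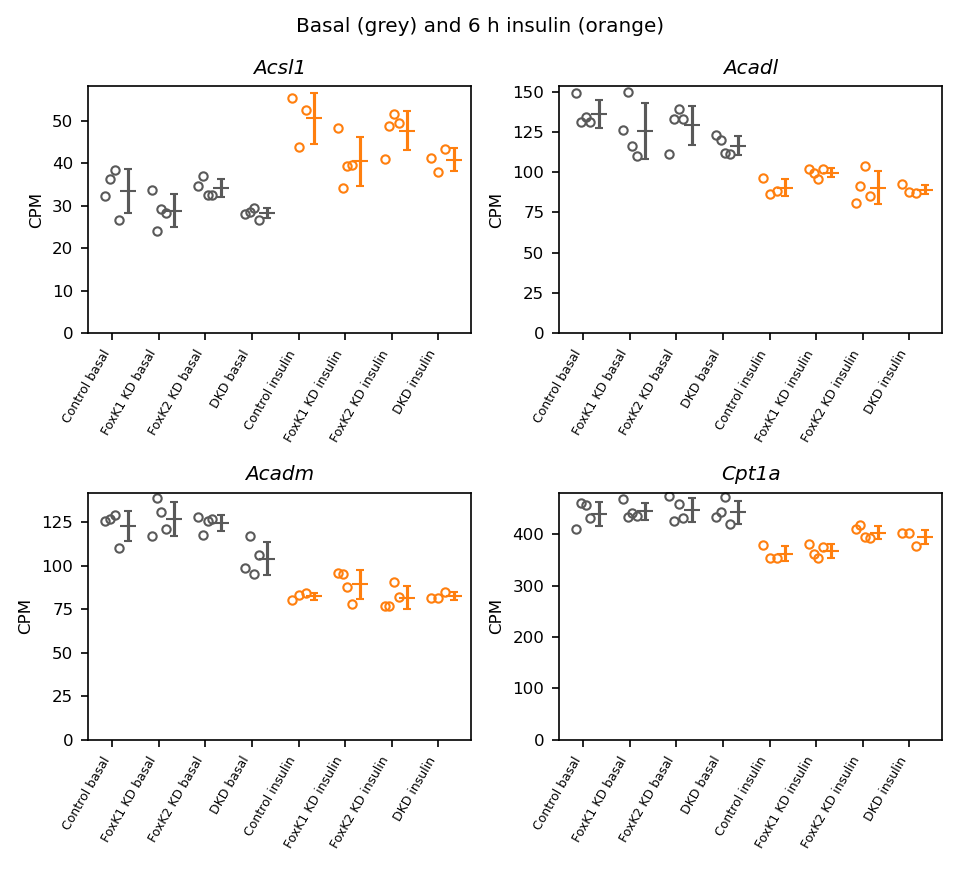
CPM in every sample of Acsl1, Acadl, Acadm and Cpt1a in the 8 groups, with the mean and SD beside the points; grey is basal and orange is insulin. Acsl1 is higher and the other 3 genes are lower after insulin in each of the 4 kinds of cells, with adjusted p-values for Cpt1a of 0.074 in FoxK2 KD and 0.102 in DKD cells.

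Other members responded in some kinds of cells. Decr1, the reductase for unsaturated chains, went from 68.6, 40.8, 52.6 and 50.5 CPM to 39.6, 38.2 and 34.6 CPM in Control cells (-0.50 ± 0.13, adjusted p = 0.0038), and was also called in FoxK1 KD cells (51.6, 53.5, 47.1 and 46.3 to 39.9, 40.7, 36.0 and 39.7 CPM, -0.34, adjusted p = 0.031) and FoxK2 KD cells (53.7, 42.6, 60.7 and 49.7 to 37.3, 44.6, 43.4 and 39.1 CPM, -0.33, adjusted p = 0.0278), each in 4 of 8 fits without 1 sample. In DKD cells its value was -0.25 (adjusted p = 0.174). Acsl3 rose in Control (0.26 ± 0.08, adjusted p = 0.0175), FoxK2 KD (0.30 ± 0.08, adjusted p = 0.00307) and DKD cells, where it went from 165, 191, 146 and 177 to 227, 240 and 259 CPM (0.50 ± 0.08, adjusted p = 4.3e-05). In Control cells that call was lost without Control insulin replicate 3 (0.22, adjusted p = 0.0862). Acsl5 rose in Control cells, from 559, 495, 552 and 451 to 674, 613 and 644 CPM (0.33 ± 0.08, adjusted p = 0.00208), and in FoxK1 KD cells (0.28 ± 0.07, adjusted p = 0.00362). Exons of Acsl5 and Zdhhc6 overlap on opposite strands, and 244 bases of Acsl3 exons overlap Utp14b on the same strand.

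Acsl4 rose after insulin in DKD cells, from 824, 923, 1020 and 1130 CPM to 1350, 1830 and 1280 CPM (0.61 ± 0.14, adjusted p = 0.0027), with no overlap. In Control cells it was at 1470, 1140, 1210 and 1250 CPM at basal and 1230, 1010 and 1410 CPM after insulin (-0.06 ± 0.14, adjusted p = 0.795). The difference between the responses was 0.67 ± 0.20, with an unadjusted p of 0.0022, and it was not called over all genes (adjusted p = 0.0816), although it was the lowest adjusted p of any member in the interaction tests. When every gene with a count was tested it was called (0.69, adjusted p = 6.5e-05), and under its other alternatives it did not reach an adjusted p below 0.05. Without DKD insulin replicate 2, the sample at 1830 CPM, the DKD response was 0.43 (adjusted p = 0.0644).

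FoxK1 KD cells had the most members called under insulin, 12 or 37.5%, and also the largest share of all genes, 31.6%. The decreases of 4 members, Ppargc1a, Hadh, Cpt2 and Crot, were called in no other kind of cell. Ppargc1a went from 104, 118, 129 and 120 to 96.8, 88.5, 92.3 and 85.0 CPM (-0.38 ± 0.09, adjusted p = 0.00214). Hadh went from 137, 153, 140 and 145 to 114, 113, 110 and 114 CPM (-0.35 ± 0.08, adjusted p = 0.00067), with a narrow spread after insulin. Etfdh, which passes electrons from the flavoprotein to ubiquinone, went from 64.0, 72.0, 73.6 and 67.4 to 50.6, 41.8, 55.9 and 50.5 CPM (-0.48 ± 0.10, adjusted p = 0.00057), and fell in FoxK2 KD cells too (-0.27 ± 0.10, adjusted p = 0.0359, called in 3 of 8 fits without 1 sample). Cpt2 went from 26.9, 40.6, 34.1 and 32.4 to 26.2, 29.5, 19.1 and 29 CPM (-0.35 ± 0.13, adjusted p = 0.0433) and Crot from 179, 190, 187 and 176 to 155, 147, 149 and 149 CPM (-0.29 ± 0.10, adjusted p = 0.03), and both were called in 3 of 8 fits without 1 sample. None of these responses was shown to differ from Control: the differences were -0.25 (adjusted p = 0.415) for Ppargc1a and -0.35 (adjusted p = 0.322) for Etfdh. In Control cells without basal replicate 1, Crot (-0.26, adjusted p = 0.0191) and Hadh (-0.25, adjusted p = 0.0115) were called as well, and so was Ppara (-1.26, adjusted p = 0.0156).

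In FoxK2 KD cells, insulin raised Ppard from 14.2, 13.2, 14.5 and 15.6 to 24.3, 22.0, 19.1 and 16.7 CPM (0.52 ± 0.13, adjusted p = 0.00254). Acadvl, the very-long-chain dehydrogenase, went from 52.2, 40.2, 49.5 and 47.0 to 55.1, 70.7, 53.1 and 66.8 CPM (0.38 ± 0.11, adjusted p = 0.00927), and 1151 bases of its exons overlap Dvl2 on the opposite strand. Ppara was at 1.05, 1.90 and 1.57 CPM in Control cells after insulin (-0.98 ± 0.45, adjusted p = 0.107), and at 1.48, 2.61, 2.96 and 1.86 CPM with FoxK1 KD, 2.20, 4.95, 2.43 and 1.26 CPM with FoxK2 KD and 2.93, 2.32 and 2.43 CPM in DKD cells. Ppargc1b had positive log2 differences of 0.97 in Control, 1.09 in FoxK1 KD and 0.98 in FoxK2 KD cells, with standard errors of 0.40 to 0.44, and none was called (lowest adjusted p = 0.0581). Its samples in Control cells were at 1.42, 2.50, 1.49 and 1.79 CPM at basal and 2.9, 4.42 and 3.46 CPM after insulin, without overlap. In FoxK1 KD cells they were at 1.81, 0.99, 1.88 and 1.34 CPM and 2.96, 4.48, 0.847 and 4.83 CPM, and without insulin replicate 3, the sample at 0.847 CPM, the difference was called (1.38, adjusted p = 0.0142). In FoxK2 KD cells they were at 3.09, 2.12, 1.73 and 0.22 CPM and 2.65, 2.48, 4.85 and 3.78 CPM, where the call was made without basal replicate 1 (1.30, adjusted p = 0.0277) and by limma-voom (1.30, adjusted p = 0.0324).

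Some insulin responses missed the threshold with all samples and were called when 1 was left out. Plin2 went from 390, 209, 204 and 246 to 218, 213 and 174 CPM in Control cells (-0.37 ± 0.14, adjusted p = 0.0518). It was called without basal replicate 2 (-0.47, adjusted p = 0.0168) or 3 (-0.48, adjusted p = 0.0146), with the replicate block (-0.36, adjusted p = 0.0365), with the GC and length trend removed (-0.36, adjusted p = 0.0295) and when every gene with a count was tested (-0.39, adjusted p = 0.00208). In FoxK1 KD cells Plin2 went from 264, 254, 241 and 254 to 222, 184, 195 and 232 CPM, without overlap (-0.28 ± 0.13, adjusted p = 0.105), and was called under 3 alternatives. Its values were -0.24 (adjusted p = 0.179) in FoxK2 KD cells, called under 2 alternatives, and -0.25 (adjusted p = 0.245) in DKD cells, so the direction was the same in all 4. Etfb, the β subunit of the flavoprotein, went from 18.1, 14.8, 16.9 and 13.2 to 12.9, 12.3 and 10.1 CPM in Control cells, without overlap (-0.40 ± 0.16, adjusted p = 0.0672, and -0.49 with an adjusted p of 0.0346 without basal replicate 4). Of its 1164 bases of exon, 678 overlap exons of Gm45233 and Mir7051 on the same strand, so its values are uncertain.

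Eci2 had lower values after insulin in each knockdown. In DKD cells it went from 53.4, 68.9, 58.3 and 53.9 to 43.7, 44.5 and 52.4 CPM, without overlap (-0.32 ± 0.11, adjusted p = 0.054), and was called in 3 of 7 fits without 1 sample. In FoxK1 KD cells it went from 56.3, 56.1, 57.2 and 56.2 to 57.3, 47.0, 43.6 and 42.3 CPM (-0.25, adjusted p = 0.0795), and was called without insulin replicate 1, the sample at 57.3 CPM (-0.36, adjusted p = 0.0173). In FoxK2 KD cells it went from 46.9, 59.3, 56.6 and 62.2 to 47.2, 49.8, 50.7 and 44.7 CPM (-0.23, adjusted p = 0.0908), and was called without basal replicate 1 (-0.31, adjusted p = 0.0273). Of the 3, only the DKD groups did not overlap. Angptl4, which was higher in DKD basal cells, went from 27.0, 27.1, 30.1 and 24.9 to 22.2, 17.8 and 19.9 CPM there, without overlap (-0.43 ± 0.15, adjusted p = 0.0537). It was called with the GC and length trend removed (-0.42, adjusted p = 0.0387) and with the compared groups alone (-0.42, adjusted p = 0.0313). In FoxK1 KD cells 3 members had higher values after insulin and missed the threshold in the main fit. Each was called in some fits without 1 sample. Acaa2 went from 105, 83.2, 62.6 and 66.4 to 115, 95.6, 106 and 88.7 CPM (0.35 ± 0.14, adjusted p = 0.0581, and 0.53 with an adjusted p of 0.00583 without basal replicate 1). With all samples it was also called by limma-voom (0.38, adjusted p = 0.0454) and with the replicate block (0.36, adjusted p = 0.0345). The compared groups alone (0.35, adjusted p = 0.0303) and every gene with a count (0.32, adjusted p = 0.0194) gave the call as well. Acaa1a went from 48.7, 51.5, 66.8 and 64.8 to 75.4, 67.6, 62.2 and 75.0 CPM (0.27 ± 0.11, adjusted p = 0.062, called in 3 of 8). Acads went from 105, 66.3, 95.7 and 88.8 to 106, 99.3, 104 and 109 CPM (0.23 ± 0.11, adjusted p = 0.0976, and 0.32 with an adjusted p of 0.0309 without basal replicate 1).

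Hsd17b4 was higher both after insulin and in DKD basal cells. It rose with insulin in Control (0.21 ± 0.07, adjusted p = 0.0226), FoxK1 KD (0.18 ± 0.06, adjusted p = 0.0349) and FoxK2 KD cells (0.20 ± 0.06, adjusted p = 0.0152), and was already higher in DKD basal cells, where insulin gave 202, 213 and 195 CPM against 192, 207, 194 and 201 CPM. The 12 basal samples of Control, FoxK1 KD and FoxK2 KD cells lay between 159 and 181 CPM and the other 18 samples between 184 and 213 CPM. Such a split, with all 12 below all 18, was found in 52 genes (0.457% of those tested), of which 10 were pseudogenes, and the opposite split in 83 genes. Hsd17b4 was the only member among them. The division follows the values of Hsd17b4, so its place there is a description and not a test. The changes were small, at most 1.16-fold, and each call was lost in 2 to 5 of the fits without 1 sample. Each was also lost when every gene with a count was tested (lowest adjusted p = 0.23). With the compared groups alone, only the call with insulin in FoxK2 KD cells was kept.

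**Figure D5:**
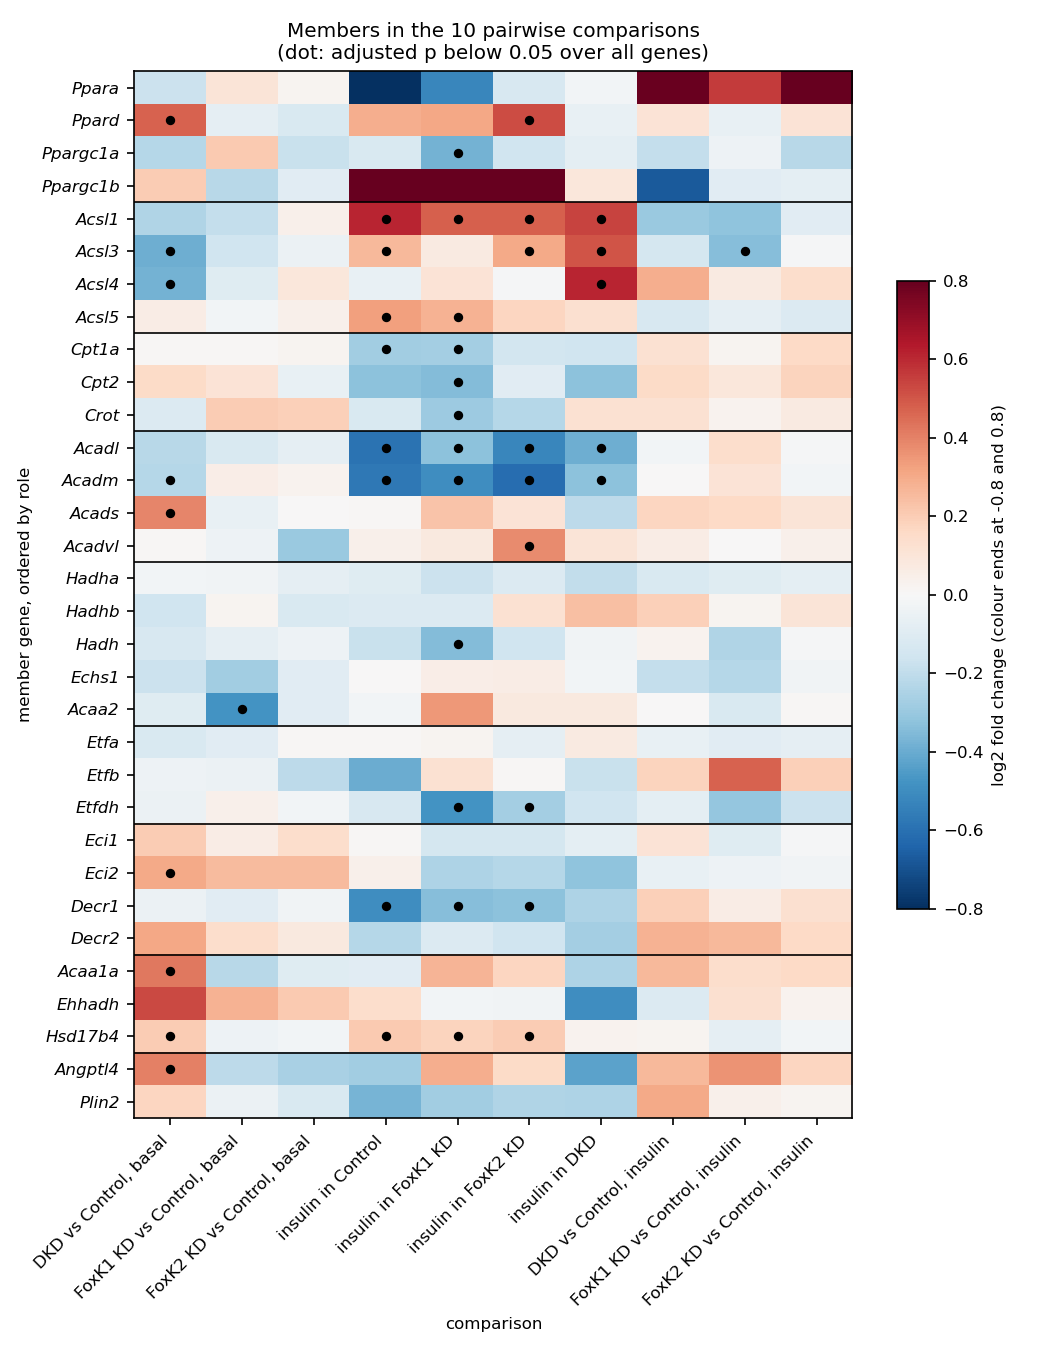
Log2 fold change of the 32 members (rows, ordered by role) in the 10 pairwise comparisons (columns), with colour from -0.8 in blue to 0.8 in red and a dot where the adjusted p was below 0.05. The dots gather in the first column and in the 4 insulin columns, where Acsl1 is red and Acadl and Acadm are blue throughout, and 1 dot, for Acsl3, lies in the last 3 columns.

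After insulin, the knockdowns hardly differed from Control in these genes. Foxk1 itself was then less depleted against Control than at basal, at 58.2% in FoxK1 KD and 64.6% in DKD cells. Control Foxk1 had a mean of 81.4 CPM at basal and 53.0 CPM after insulin. No member was called in DKD against Control cells, beside 1.21% of all genes, or in FoxK2 KD against Control cells, beside 0.0264%, with 2 members in each at an unadjusted p below 0.05. Such an unadjusted p was found for 1449 of the 11368 genes tested with DKD and 685 with FoxK2 KD. In FoxK1 KD against Control cells 1 member was called, beside 3.59% of all genes. This was Acsl3, at 262, 257 and 283 CPM in Control and 211, 228, 210 and 193 CPM in FoxK1 KD cells, with no overlap (-0.34 ± 0.08, adjusted p = 0.0147). The call was lost without Control insulin replicate 3 (-0.31, adjusted p = 0.0621) or FoxK1 KD insulin replicate 4 (-0.30, adjusted p = 0.0687). No insulin response of a member differed between a knockdown and Control in the interaction tests at an adjusted p below 0.05, beside 1.54% of all genes for DKD and 0.0% for FoxK1 KD and FoxK2 KD, with 3, 4 and 1 members at an unadjusted p below 0.05. Among the 11368 genes tested, 1661, 1519 and 625 had such an unadjusted p. Without Control basal replicate 1 the share of all genes called for DKD was 3.15%, with no member called. The median standard error of these differences was 0.16 to 0.17 on the log2 scale over the members, so differences of the size of the responses themselves could be missed.

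The study used an adjusted p of 0.25 at basal, and for insulin the same with a change over 1.5-fold. At an adjusted p of 0.25 alone there were 16 members in DKD against Control basal cells (beside 43.6% of all genes), 7 with FoxK1 KD (26.6%) and 1 with FoxK2 KD (3.59%). Insulin gave 16 in Control (46.6%), 21 in FoxK1 KD (54.0%), 18 in FoxK2 KD (49.5%) and 15 in DKD cells (37.3%). Insulin with the 1.5-fold limit as well gave 4 in Control (Ppara, Ppargc1b, Acsl1 and Acadl, beside 12%), 1 in FoxK1 KD (Ppargc1b, 12.9%), 2 in FoxK2 KD (Ppargc1b and Acadm, 10.7%) and 1 in DKD cells (Acsl4, 8.49%). After insulin there were 0 in DKD (6.66%), 6 in FoxK1 KD (15.1%) and 0 in FoxK2 KD cells (0.238%) against Control. The interaction tests gave 1 for DKD (9.88%), which was Acsl4, 0 for FoxK1 KD (3.4%) and 0 for FoxK2 KD (0.0%).

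Altogether 21 of the 32 members were called in at least 1 comparison, and 4 of the 45 called differences were 1.5-fold or more: Acsl1 and Acadl with insulin in Control cells, Acsl4 with insulin in DKD cells and Acadm with insulin in FoxK2 KD cells. The 11 members called in none with all samples were Ppara, Ppargc1b, Hadha and Hadhb (the α and β subunits of the trifunctional protein), Echs1, Etfa and Etfb (the subunits of the electron transfer flavoprotein), Eci1, Decr2, Ehhadh and Plin2. Hadha, which is well measured at 162 to 206 CPM in Control basal cells, had log2 differences of -0.20 to -0.02 in the 4 insulin and 3 basal knockdown comparisons.

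Other genes of the pathway were read from 6 lists of 132 genes outside the members, of which 97 were tested. In DKD against Control basal cells 11 rose (11.3%) and 9 fell (9.28%), beside 10.3% and 10.8% of all genes, with a median of 0.04 on the log2 scale. Without Control basal replicate 1 there were 12 and 11, beside 13% and 13.9%, and the genes named below kept their calls. Fabp5 (-0.95 with all samples) lost its call without that replicate (-0.22, adjusted p = 0.274), as did Slc25a20, Hsd17b10 and Slc25a42. Lipid droplet genes were among those that rose, with Plin3 (0.53 ± 0.09, adjusted p = 4.2e-05), the triglyceride synthase Dgat2 (0.56 ± 0.12, adjusted p = 0.00102) and Plin4 (0.70 ± 0.25, adjusted p = 0.0394), 3 of the 11 tested, beside 10.3% of all genes that rose, and none of that list fell. Crat, the carnitine acetyltransferase, was higher in DKD cells (0.44 ± 0.10, adjusted p = 0.00229), and the mitochondrial thioesterase Acot2 was lower (-0.76 ± 0.17, adjusted p = 0.00135). In the list of PPAR partners and other regulators of transcription, Tfam (0.47 ± 0.12) rose. The deacetylase Sirt1 (-0.54 ± 0.16), the acetyltransferase Ep300 (-0.40 ± 0.11) and the corepressor Nrip1 (-0.40 ± 0.12) fell.

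With insulin in Control cells, 6 of the 97 rose (6.19%) and 15 fell (15.5%), beside 12.4% and 13.1% of all genes. Without Control basal replicate 1 there were 8 and 18, beside 13.1% and 12.5%, and the genes named below again kept their calls. Ech1 (-0.34 with all samples, -0.18 without that replicate) and Crat (0.30 and 0.21) lost theirs. Among other mitochondrial enzymes of oxidation 1 rose and 5 fell out of 19, with Acad12 (-1.22 ± 0.17, adjusted p = 1.4e-06), Acot2 (-0.77 ± 0.18, adjusted p = 0.00184) and Acadsb (-0.63 ± 0.10, adjusted p = 2.1e-05) the most. Peroxisomal genes had 4 decreases and no increase out of 20, including Acaa1b (-0.68 ± 0.17, adjusted p = 0.00309) and Hacl1 (-0.62 ± 0.15, adjusted p = 0.002). The lipases Pnpla2 (-0.72 ± 0.11, adjusted p = 1e-05), which opens lipolysis of droplets, and Lipa (-0.54 ± 0.09, adjusted p = 1.3e-05), the lysosomal acid lipase, fell, and the droplet gene Fitm2 rose (0.63 ± 0.11, adjusted p = 4.8e-05). Lpin1, a known partner of Ppargc1a and PPARα that also acts in triglyceride synthesis, rose (0.42 ± 0.08, adjusted p = 0.00024). In the knockdowns the counts were 15 up and 18 down with FoxK1 KD (15.5% and 18.6%, beside 16.2% and 15.4% of all genes), 10 up and 15 down with FoxK2 KD (10.3% and 15.5%, beside 14.4% and 13.7%), and 4 up and 7 down in DKD cells (4.12% and 7.22%, beside 8.31% and 7.99%).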

How the data were processed

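RNA was measured in 30 samples of AML12 cells. The authors deposited raw counts of reads per gene for each sample, without normalization; the submitters' processing notes name CASAVA 1.8, STAR 2.4.2a, featureCounts and the build GRCm38.p4, and the strand setting is not given in the sources used here. The library kit was NEBNext mRNA. Groups were taken from the labels. Gene identifiers were matched without version to GENCODE M21 (48435 of 49089). Genes were kept with the default filter of edgeR (minimum count 10), and 11368 were tested in 1 quasi-likelihood model of the 8 groups (edgeR 4.0.16, TMM normalization), with Benjamini-Hochberg adjustment over all genes tested. A member was called at an adjusted p below 0.05. The study itself used limma. Alternatives were DESeq2 1.42.0, limma-voom 3.58.1, other size factors, other filters, an adjusted p of 0.25, alone and with 1.5-fold, removal of GC and length trends, a replicate block, the compared groups alone and fits without 1 sample. The counts of the other lists without Control basal replicate 1 were added after seeing the data.

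Every member is named, with sample values for those that changed by 1.5-fold, for Ppara, Ppargc1a and Cpt1a and where leaving out 1 sample changed a call, except that some of the latter are given as a range or a difference; from each other list up to 4 genes with the largest called differences were eligible. The members and lists were chosen with earlier results of these data known. The scripts were tested on simulated data. Total counts per sample (2141460 to 5668270) limit the precision for low genes, which counting error alone makes uncertain.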

Additional observations from a re-analysis of the deposited data

Results flagged for a closer look

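In 192 groups of 4 samples (32 members in 6 groups), 5 samples lay far from the other 3 of their group, which is 2.6% of the groups, where chance gives about 1 in 20. Acadm was at 110 CPM in Control basal replicate 4 (others 126 to 129 CPM). Hadha was at 152 CPM in FoxK1 KD insulin replicate 3 (others 169 to 170 CPM). Acaa1a was at 52.8 CPM in FoxK2 KD basal replicate 1 (others 65.1 to 67.2 CPM). Ehhadh was at 7.92 CPM in FoxK1 KD basal replicate 1 (others 5.35 to 5.65 CPM). Plin2 was at 356 CPM in DKD basal replicate 1 (others 271 to 280 CPM).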

How the results depend on the processing

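Of the 45 called differences, DESeq2 kept 45, other size factors 45, a minimum of 10 counts in every sample 45, limma-voom 44, removal of GC and length trends 37, all genes with a count 34 and the compared groups alone 33, and none changed direction. The replicate block kept 44, losing Cpt2 with insulin in FoxK1 KD cells (adjusted p = 0.054). Same-numbered samples of different groups had a mean correlation of deviations of -0.0134 over 99 pairs (-0.205 to 0.199), and others of 0.00434. Pairs of basal and insulin samples of the same kind of cells were not examined alone, so a pairing there was not tested. With the block, 9 members were called in DKD (beside 20.2% of all genes) and 1 in FoxK1 KD (7.29%) at basal. With insulin there were 10 in Control (23.8%), 12 in FoxK1 KD (30.9%), 9 in FoxK2 KD (27.3%) and 6 in DKD cells (15.3%).

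At an adjusted p below 0.25 the members called were 16 in DKD (beside 43.6% of all genes), 7 in FoxK1 KD (26.6%) and 1 in FoxK2 KD (3.59%) against Control at basal. With insulin they were 16 in Control (46.6%), 21 in FoxK1 KD (54.0%), 18 in FoxK2 KD (49.5%) and 15 in DKD cells (37.3%). There were 6 in FoxK1 KD against Control after insulin (15.1%) and 1 in the DKD interaction (9.88%). With a change over 1.5-fold as well, they were 0 and 0 in DKD and FoxK1 KD at basal, 4, 1, 2 and 1 with insulin in that order, 0 in FoxK1 KD after insulin and 1 in the DKD interaction. With every gene that had a count, 4 were called in DKD (beside 9.25% of all genes) and 2 in FoxK1 KD (4.49%) at basal. The DKD interaction then gave 1 (1.51%). For FoxK1 KD at basal, DESeq2 called 2 (beside 8.44% of all genes) and the fit without GC and length trends 2 (8.63%). With the compared groups alone, 5 were called in DKD and 0 in FoxK1 KD at basal and 3 with insulin in Control cells. Fits without 1 sample called 5 to 12 in DKD and 0 to 3 in FoxK1 KD at basal, 6 to 11 with insulin in Control, 8 to 13 in FoxK1 KD, 7 to 8 in FoxK2 KD and 4 to 6 in DKD cells, and 0 to 1 in FoxK1 KD after insulin. In DKD at basal the lowest count, 5, came without DKD basal replicate 2 or 3 (beside 17.3% and 16.8% of all genes). The cause was not tested. Depth limits Ppara, Ppargc1b and Ehhadh, with 291, 255 and 639 counts in all.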
